A study of Mus musculus with 26 samples.

Results

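Interferon-stimulated genes are the transcripts that a cell makes when an interferon binds its receptor. The 40 members described here were named by symbol, and their identifiers were looked up in the deposited tables. Of these, 39 were among the 16322 genes of the tumour tables and 38 among the 14131 genes of the sorted-cell tables. The expression of Gbp5 was not analysed here, and Ifi44 was measured in tumours only. A set of 8 members encodes the interferon-inducible GTPases of the Gbp and Irg families, 7 of them measured, and is described apart from the other 32.

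The libraries came from KPC mice, a genetically engineered strain that forms pancreatic ductal adenocarcinoma. Mice were given vehicle or, for 14 days, GS9820, which inhibits p110δ, a catalytic subunit of phosphoinositide 3-kinase found mainly in leukocytes. Whole tumours gave 7 vehicle and 5 treated libraries. Cells sorted from the spleen gave 3 vehicle and 4 treated libraries of polymorphonuclear cells (PMN), also labelled "low", and 3 vehicle and 4 treated libraries of monocytes, also labelled "high". The labels give the strain as KPC in every group, with no further allele, and no age or number of mice per library. No label says that libraries of a group came from separate mice, so the p-values measure the spread between libraries, which may be partly technical. Values are deposited log2 expression values, on which a difference of 1 is a 2-fold ratio, and sequencing depth is unknown. The 12 neutrophil markers averaged 11.50 to 12.05 in PMN libraries and 7.51 to 9.95 in monocyte libraries. The 8 classical monocyte markers averaged 7.72 to 8.18 and 9.18 to 10.60. Both labels matched these markers, while the monocyte libraries also held neutrophil transcripts at varying levels. PMN libraries held transcripts of other cells too. Marker means in vehicle PMN were 0.46 to 5.98 for NK cells and 3.70 to 6.52 for macrophages.

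Type I interferons act through a receptor that activates the kinases Jak1 and Tyk2, which phosphorylate Stat2. Stat2 and Irf9 are parts of a complex that binds the interferon-stimulated response element (ISRE) in promoters. Interferon-γ acts through another element, the γ-activated site (GAS). Products of the induced genes sense viral nucleic acid, degrade RNA, block translation, or, in the case of the GTPases, attack the membranes of compartments that hold pathogens.

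The promoters of members are shown because these elements are the sequences through which the pathway acts. RefSeq entries (GRCm38.p6, 250 bases before to 50 after each transcript start) were found for 31 of the 40 members, with 36 promoters in all. The ISRE core was searched as GAAANNGAAA and the GAS as TTCNNNGAA, both on either strand and with overlapping matches allowed. The windows below, each 100 bases long, were chosen as examples of the roles described later, and capitals mark every match of either motif.
Isg15: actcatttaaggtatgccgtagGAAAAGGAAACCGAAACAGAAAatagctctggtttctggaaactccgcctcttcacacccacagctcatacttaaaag
Ifit1: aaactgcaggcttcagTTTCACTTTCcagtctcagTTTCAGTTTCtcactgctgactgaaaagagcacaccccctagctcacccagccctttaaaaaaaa
Oas1a: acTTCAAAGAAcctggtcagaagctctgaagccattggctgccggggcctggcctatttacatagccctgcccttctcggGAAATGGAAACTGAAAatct
Stat2: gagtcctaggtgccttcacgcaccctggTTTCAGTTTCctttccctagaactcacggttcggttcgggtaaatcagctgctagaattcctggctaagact
Irgm1: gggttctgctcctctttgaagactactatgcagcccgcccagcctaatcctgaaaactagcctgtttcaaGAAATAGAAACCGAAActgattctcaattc
Gbp7: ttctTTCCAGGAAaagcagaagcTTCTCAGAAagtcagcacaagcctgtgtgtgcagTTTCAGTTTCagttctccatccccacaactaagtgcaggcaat
Igtp: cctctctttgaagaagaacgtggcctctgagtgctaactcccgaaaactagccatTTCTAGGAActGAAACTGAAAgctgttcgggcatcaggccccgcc
Irgm2: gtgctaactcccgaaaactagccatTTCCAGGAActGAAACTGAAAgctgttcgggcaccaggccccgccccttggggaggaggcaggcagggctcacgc
The Isg15 window (chr4:156200819-156200918, minus strand) holds 3 ISRE cores in an overlapping chain, and the Ifit1 window (chr19:34640769-34640868, plus strand) holds 2 that do not overlap. The Oas1a window (chr5:120907526-120907625, minus strand) holds 2 overlapping cores close to the start and a GAS match at its far end. In Stat2 (chr10:128270248-128270347, plus strand) the core lies farther out, with its first base at position -222 from the start. Irgm1 (chr11:48871421-48871520, minus strand) has 2 overlapping cores and no GAS match in the window, which is also part of an exon of a noncoding Irgm1 transcript in GENCODE. Gbp7 (chr3:142530226-142530325, plus strand) has 2 GAS matches followed by 1 ISRE core. Igtp (chr11:58199456-58199555) and Irgm2 (chr11:58214877-58214976), neighbours on the plus strand of chromosome 11, each have a GAS match followed after 2 bases by the same ISRE core. When these windows are placed with the cores in register, 68 of 70 bases are identical, with a longest unbroken run of 29.

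Of the 31 members with a promoter entry, 19 held an ISRE core. Among promoters the share was 55.6% for members and 3.44% for all 32851 mouse promoters of the same length. All 7 GTPase genes with an entry (Irgm1, Irgm2, Igtp, Gbp2, Gbp3, Gbp5 and Gbp7) held one, and so did 12 of the 24 other genes. Iigp1 had no promoter entry, so these 7 are not the 7 GTPases with expression values. GAS matches were present in 25.0% of member promoters and 8.30% of all promoters, in 4 of the 7 GTPase genes (Gbp5, Gbp7, Igtp and Irgm2) and in 5 of the 24 others (Bst2, Eif2ak2, Ifi35, Ifit2 and Oas1a). A match describes letters in the window and is not evidence of binding.

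In treated tumours, 6 of the 39 measured members rose, none fell, and the differences of 38 were positive. Those that rose were Iigp1, Irgm2 and Irgm1 among the GTPases, the transcription factor Stat2, the RNA sensor Ddx58 and the nuclear body protein gene Sp100. Across all 16296 genes tested, 0.878% were called higher and 1.33% lower (limma, Benjamini-Hochberg adjusted p under 0.05). The median difference was 1.06 over the members and -0.06 over all genes, of which 45.3% had a positive difference. At an unadjusted p under 0.05 there were 24 of the 39 members, all with positive differences, and 3982 of the 16296 genes.

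**Figure D1:**
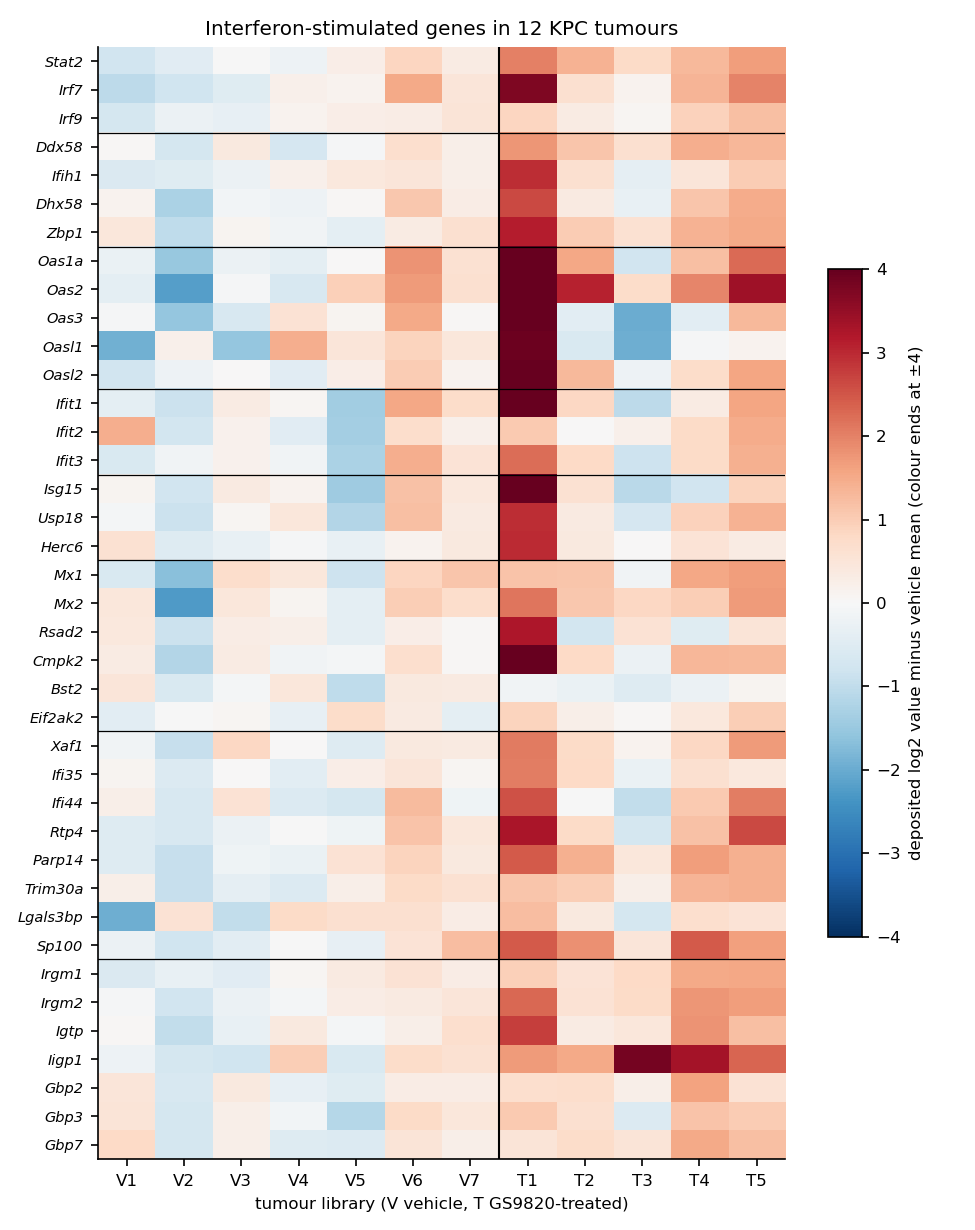
Colour gives each member's deposited log2 value minus its mean in the 7 vehicle tumours, with 39 genes as rows grouped by role, 12 tumour libraries as columns and the colour scale ending at 4 on either side. Treated tumour 1 was the highest of all 12 in 28 of 39 members, and treated tumour 3 was the lowest treated tumour in 32. Over all 16296 genes tested the same counts were 2244 and 3725.

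Among the signal transducers, Stat2, the signal-carrying subunit of the ISRE-binding complex (ENSMUSG00000040033, chromosome 10, 128270559 to 128292849), measured 6.71, 6.08, 5.45, 5.97 and 6.35 in treated tumours 1 to 5. Vehicle tumours ran from 3.92 to 5.55 with a median of 4.67. The groups overlapped only through treated tumour 3 and vehicle tumour 6, and the rise was 1.43 ± 0.28 (SE; limma, adjusted p = 0.0324). Irf7, the factor that amplifies type I interferon production, stood at 7.87 in treated tumour 1. Treated tumours 2 to 5 had 4.27 to 6.11 and vehicle tumours 3.08 to 5.64, a difference of 1.58 ± 0.58 that did not pass (limma, adjusted p = 0.129). Irf9, the DNA-binding subunit of the same complex, differed by 0.67 ± 0.25 (limma, adjusted p = 0.129).

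Among the sensors of foreign RNA or DNA, Ddx58, which encodes RIG-I (ENSMUSG00000040296, chromosome 4, 40203773 to 40239828), measured 6.49, 5.83, 5.37, 6.18 and 6.06 in treated tumours 1 to 5. Vehicle tumours lay between 4.03 and 5.41 with a median of 4.79. Only treated tumour 3 lay within the vehicle range, and the rise was 1.26 ± 0.27 (SE; limma, adjusted p = 0.0351). Zbp1, a sensor of left-handed nucleic acid, differed by 1.54 ± 0.41 (limma, adjusted p = 0.0631). Its treated values were 5.90, 3.76, 3.37, 4.14 and 4.28, against 1.75 to 3.39 in vehicle, so here too only treated tumour 3 overlapped. Dhx58 and Ifih1, the other members of the RIG-I family, differed by 1.06 ± 0.47 and 0.94 ± 0.45 and did not pass.

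Sp100, which encodes a component of nuclear bodies that silence viral DNA (ENSMUSG00000026222, chromosome 1, 85649988 to 85709998), measured 6.15, 5.54, 4.18, 6.14 and 5.33 in treated tumours 1 to 5. Vehicle tumours had a lowest value of 2.92, a median of 3.46 and a highest of 4.95. Treated tumour 3 was again the one within the vehicle range, and the rise was 1.76 ± 0.40 (SE; limma, adjusted p = 0.041). Parp14, an ADP-ribosyltransferase, differed by 1.49 ± 0.36, just outside the threshold (limma, adjusted p = 0.0532).

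Of the 7 measured GTPases 3 passed the threshold. Treated tumours lay above all vehicle tumours without overlap in 2 of the 39 members, both of them GTPases, and in 0.951% of all genes. Iigp1, an immunity-related GTPase that coats parasite vacuoles (ENSMUSG00000054072, chromosome 18, 60376027 to 60392634), measured 4.23, 4.04, 6.36, 5.86 and 4.84 in treated tumours 1 to 5. Vehicle tumours ran from 1.72 to 3.52 with a median of 2.31. Every treated tumour lay above every vehicle tumour, and the rise was 2.54 ± 0.47 (SE; limma, adjusted p = 0.0239). Treated tumour 3, the lowest treated tumour in 30 of the 32 members other than GTPases, was the highest of all 12 for Iigp1. That tumour also had the highest mean of hepatocyte markers, given below.

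Irgm2, a regulatory GTPase of the same family (ENSMUSG00000069874, chromosome 11, 58199618 to 58222782), measured 6.04, 4.33, 4.51, 5.52 and 5.43 in treated tumours and 2.996 to 4.24 in vehicle, with a vehicle median of 3.72. The groups did not overlap, although treated tumour 2 and vehicle tumour 7 were close, and the rise was 1.41 ± 0.31 (SE; limma, adjusted p = 0.0395). Irgm1, which restrains the other family members on host membranes (ENSMUSG00000046879, chromosome 11, 48861968 to 48871683), measured 5.97, 5.56, 5.79, 6.52 and 6.56 in treated tumours. Vehicle values were 4.42 to 5.59 with a median of 5.08, so treated tumour 2 fell just inside the vehicle range, and the rise was 1.08 ± 0.25 (SE; limma, adjusted p = 0.0455). Igtp, also called Irgm3, differed by 1.31 ± 0.41 (limma, adjusted p = 0.0891). The annotated Irgm2 gene overlaps Igtp (58199556 to 58207591) on the same strand, so reads of these genes may not have been told apart.

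The guanylate-binding proteins, larger GTPases that open pathogen vacuoles, had smaller differences and none passed. They were 0.89 ± 0.29 for Gbp7, 0.76 ± 0.27 for Gbp2 and 0.66 ± 0.38 for Gbp3 (limma, adjusted p = 0.101, 0.122 and 0.298). Treated tumours 4 and 5 were above every vehicle tumour in 7 of 7 GTPases, treated tumour 1 in 6, and treated tumours 2 and 3 in 3 each.

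**Figure D2:**
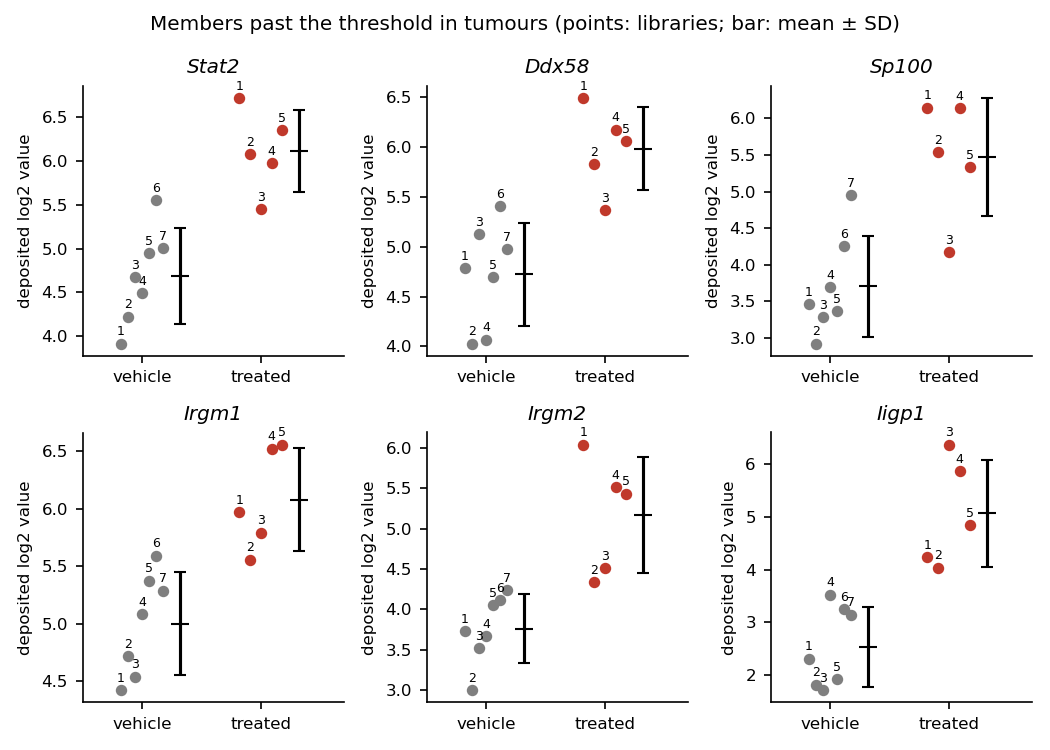
Points are single tumour libraries, numbered by replicate, and bars give the mean ± SD of 7 vehicle and 5 treated tumours for the 6 members past the threshold, on the deposited log2 scale with a separate axis range per gene. Treated and vehicle tumours were separate for Irgm2 and Iigp1, and treated tumour 3 was the lowest treated tumour for Stat2, Ddx58 and Sp100 but the highest for Iigp1.

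In most genes of the families that degrade or bind viral RNA, treated tumour 1 stood above all other tumours. The OAS genes encode enzymes that activate RNase L and related proteins. Oas3 measured 6.76 in treated tumour 1. Its values were 0.02 to 3.28 in treated tumours 2 to 5 and 0.43 to 3.51 in vehicle, a difference of 0.65 ± 0.94. Oasl1 measured 7.87 in treated tumour 1 and 2.00 to 4.09 in treated tumours 2 to 5, which lay within the vehicle range of 2.03 to 5.39 but for treated tumour 3. In both genes treated tumours 2 to 5 lay below the highest vehicle tumour.

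In Oas2 every treated tumour but treated tumour 3 lay above every vehicle tumour. Its treated values were 6.28, 5.26, 2.91, 4.14 and 5.56, against -0.04 to 3.87 in vehicle, and its difference of 2.66 ± 0.68 was the largest of all 39 members but did not pass (limma, adjusted p = 0.0583). Oas1a and Oasl2 differed by 1.67 ± 0.72 and 1.48 ± 0.57 (limma, adjusted p = 0.176 and 0.139), with treated tumour 1 at 8.21 and 8.01. Treated tumour 5 also lay above every vehicle tumour in both, and treated tumour 2 in Oasl2. Members of this family and of the IFIT, Gbp and Trim30 families have near-identical copies in the mouse genome, so the way reads were shared between copies makes single values uncertain.

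The IFIT genes, whose products bind viral RNA that lacks the host cap, gave 0 of 3 past the threshold. Ifit1 measured 8.84 in treated tumour 1, while the remaining treated tumours had 2.46 to 5.08 and vehicle tumours 2.09 to 5.02. Ifit3 and Ifit2 differed by 0.88 ± 0.52 and 0.70 ± 0.45. The ubiquitin-like modifier Isg15 showed the same form, with 7.03 in treated tumour 1, 1.77 to 3.74 in the others and 1.42 to 4.03 in vehicle. Its protease Usp18 and Herc6, a ligase of the same system, differed by 0.98 ± 0.56 and 0.86 ± 0.45 and did not pass.

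Of the 6 direct antiviral effectors none passed either. Cmpk2 and Rsad2, neighbouring genes for a nucleotide kinase and for viperin, measured 6.39 and 6.26 in treated tumour 1. The other treated tumours had no more than 3.68 and 3.62. In Cmpk2, treated tumours 2, 4 and 5 (3.15, 3.68 and 3.65) also lay above the vehicle range of 1.21 to 3.03. In Rsad2, treated tumours 3 and 5 (3.62 and 3.53) lay just above the vehicle range of 2.16 to 3.45, and treated tumours 2 and 4 within it. Mx1 and Mx2, dynamin-like GTPases that trap viral particles, differed by 1.06 ± 0.50 and 1.34 ± 0.51. Mx2 is annotated as a polymorphic pseudogene in GENCODE. The translation-blocking kinase gene Eif2ak2 differed by 0.52 ± 0.24. Bst2, which tethers budding virus to the cell surface, was the only member with a negative difference, -0.21 ± 0.27. The remaining members (Trim30a, Xaf1, Rtp4, Ifi35, Ifi44 and Lgals3bp) differed by 0.43 to 1.43 and none passed.

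**Figure D3:**
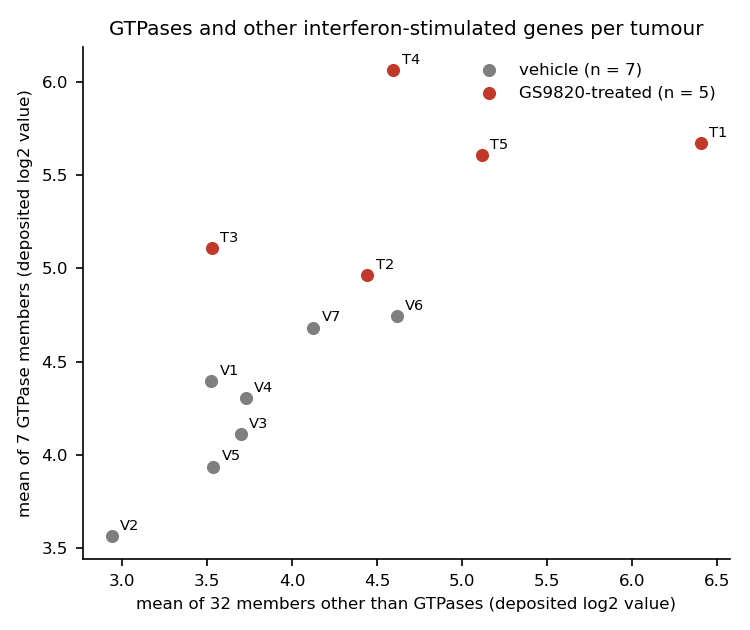
Each point is 1 tumour library, with the mean deposited log2 value of the 32 members other than GTPases on the x axis and that of the 7 measured GTPases on the y axis (7 vehicle and 5 treated tumours). The treated tumours lie between 4.96 and 6.06 on the y axis and the vehicle tumours between 3.57 and 4.74, whereas the groups overlap on the x axis. The y axis includes Iigp1, at 6.36 in treated tumour 3, and without Iigp1 the GTPase means of the groups overlap through that tumour.

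Set side by side, the classes ordered the treated tumours differently. The mean of the 32 other members was 6.40 in treated tumour 1, 5.12 in treated tumour 5, 4.60 in treated tumour 4, 4.44 in treated tumour 2 and 3.53 in treated tumour 3, against 2.94 to 4.61 in vehicle. The GTPase mean was 6.06 in treated tumour 4, 5.67 in treated tumour 1, 5.61 in treated tumour 5, 5.11 in treated tumour 3 and 4.96 in treated tumour 2. In treated tumour 3 this mean rested on Iigp1 (6.36), while Gbp2, Gbp3, Gbp7 and Igtp lay within the vehicle range. With Iigp1 left out, treated tumour 3 was the lowest treated tumour in the GTPase mean as well, and it fell within the vehicle range. Of the 32 other members, treated tumour 1 lay above every vehicle tumour in 30, treated tumour 5 in 24, treated tumour 4 in 14, treated tumour 2 in 13 and treated tumour 3 in 1. Over all genes tested the same shares were 18%, 12.1%, 15.3%, 16.3% and 10.4%. Members also varied more within a group than other genes. The median SD was 0.97 in treated tumours and 0.63 in vehicle tumours for members, and 0.44 and 0.45 for all genes. The difference between the classes was not tested.

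The 6 calls depended on single tumours, and array quality weights raised their number to 14, while the calls over all 16296 genes went from 359 to 2764. With 1 tumour left out in turn, Iigp1 kept its call in 10 of 12 fits, Stat2 in 6, Sp100 in 4, and Ddx58, Irgm1 and Irgm2 in 3 each. No member was called without vehicle tumour 2 or without treated tumour 4, and without the latter no gene of the whole table was. Calls numbered 1 without vehicle tumour 3 or 4 or treated tumour 2 or 5, 2 without vehicle tumour 1 or treated tumour 1, 3 without vehicle tumour 7, 8 without vehicle tumour 5 or 6, and 10 without treated tumour 3. Without vehicle tumour 5 the calls over all genes numbered 1690, against 415 without vehicle tumour 6 and 472 without treated tumour 3. The median member difference stayed between 0.78 and 1.37 over these fits.

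Several cell type markers differed between the same tumours. Of 10 T cell markers 9 were measured, with a list mean of 0.18 to 3.70 in vehicle and 3.40, 1.40, 1.71, 4.99 and 2.91 in treated tumours 1 to 5, and a summed level (log2) of 4.37 to 7.02 and 5.15 to 8.45. Between 4 and 9 of them were above 0 in vehicle tumours and between 7 and 9 in treated tumours. All 9 had positive differences and none passed. Of 8 B cell markers the list mean was -0.91 to 4.59 in vehicle and -0.54 to 5.67 in treated tumours, highest in treated tumour 4, with summed levels of 2.89 to 7.91 and 2.86 to 9.04. Macrophage markers, 8 of 9 measured, averaged 6.16 to 8.64 in vehicle and 5.97 to 8.02 in treated tumours, lowest in treated tumour 1, with summed levels of 9.75 to 12.55 and 9.39 to 11.77. Neutrophil markers, 10 of 12 measured, averaged 3.14 to 6.77 in vehicle and 1.52 to 4.27 in treated tumours, with summed levels of 7.41 to 12.78 and 5.91 to 10.09. All 8 islet markers were measured and averaged -0.04 to 7.35 in vehicle and 5.88 to 9.25 in treated tumours, with summed levels of 3.08 to 10.80 and 9.39 to 12.59. Of these 3 were called higher (Chga, Chgb and Ppy), and all 8 had an unadjusted p under 0.05. Of 7 endothelial markers 2 were called higher (Kdr and Egfl7) and 5 had an unadjusted p under 0.05. Their list mean was 4.41 to 5.43 in vehicle and 4.89 to 5.90 in treated tumours, with summed levels of 7.49 to 8.38 and 7.90 to 8.97. Adipocyte markers, 5 of 7 measured with none called and 4 at an unadjusted p under 0.05, had a median difference of 3.12, list means of -0.87 to 3.49 and 0.06 to 6.26, and summed levels of 3.94 to 7.59 and 6.36 to 8.97. All 12 acinar markers had positive differences with none called, list means of 2.80 to 10.16 and 5.77 to 10.42, and summed levels of 8.27 to 16.14 and 12.11 to 15.50. Their part in the member differences was not tested. In bulk tissue, fewer cells of a type and less RNA per cell cannot be told apart.

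Hepatocyte markers, 5 of 8 measured, marked 3 tumours. Their list mean was 5.77 in vehicle tumour 4, 6.19 in treated tumour 1 and 11.57 in treated tumour 3, and 0.58 to 2.83 in the other 9, with summed levels of 3.79 to 8.55 in vehicle and 5.89 to 14.36 in treated tumours. Iigp1 measured 3.52 in vehicle tumour 4 and 6.36 in treated tumour 3, the highest value of each group, and 4.23 in treated tumour 1. The part of hepatocyte RNA in the Iigp1 values was not tested. Without these 3 tumours, an alternative chosen after seeing the data, 1 member (Iigp1) was called. The median member difference was then 1.05, with 37 of 39 positive.

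Outside the members, the pathway was read through lists. Of 12 interferon genes themselves (Ifnb1, Ifng and others) none was measured in either set of tables. None of 10 receptor and kinase genes passed in tumours, with the kinase gene Tyk2 at 0.52 ± 0.20 (limma, adjusted p = 0.14) and the receptor chain gene Ifnar1 at 0.26 ± 0.20. None of 5 other interferon regulatory factors passed, with Irf1 at 0.84 ± 0.29. Of 11 genes that lead to interferon production none passed, with the kinase gene Tbk1 at 0.62 ± 0.21, and none of 6 negative regulators did.

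Of 39 further interferon-induced genes 37 were tested, and 4 rose while 1 fell, with a median difference of 0.85. Nlrc5, the transactivator of class I antigen presentation genes, rose by 1.80 ± 0.38, and Tgtp1, another Irg family GTPase, by 1.97 ± 0.46. Slfn5 rose by 1.76 ± 0.39 and Ube2l6, the conjugating enzyme for Isg15, by 1.39 ± 0.27. Isg20, an RNA exonuclease, fell by 1.23 ± 0.27 (limma, adjusted p = 0.04), with group means of 4.43 in the 7 vehicle and 3.19 in the 5 treated tumours (SD 0.58 and 0.24). Of 6 genes for nucleic acid turnover, Samhd1, which depletes nucleotides and so blocks reverse transcription, rose by 1.03 ± 0.20 (limma, adjusted p = 0.0279).

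In splenic PMN, treatment was accompanied by no call among the 38 members, and by none among all 13968 genes (0% called). With limma, 0 members had an unadjusted p under 0.05, and in a fit of the PMN groups only 2 did, with 0 called. The median member difference was 0.05, with 23 positive and 15 negative, against a median of 0.004 and 50.8% positive over all genes. Stat2 measured 6.69, 6.66 and 6.73 in vehicle PMN and 6.96, 6.84, 7.14 and 6.83 in treated PMN. The groups did not overlap, but the difference of 0.25 ± 0.31 was within the SE of the pooled fit (limma, adjusted p = 1). That SE also takes in the spread of the monocytes. The SD of Stat2 was 0.03 in vehicle PMN, 0.15 in treated PMN and 0.88 in vehicle monocytes. Oasl1 was the other member without overlap, at 5.85 to 6.09 in vehicle and 6.17 to 6.97 in treated PMN (0.56 ± 0.34). These were 2 of 38 members, and 1.78% of all genes were likewise higher in treated PMN without overlap. Of the members that rose in tumours, Iigp1 differed by -0.30 ± 0.65 in PMN, Irgm2 by 0.26 ± 0.36 and Ddx58 by 0.02 ± 0.28. The sign of the median in PMN turned in 4 of the 7 fits that left out 1 library.

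In splenic monocytes, 0 of 38 members passed and 0% of all genes were called. Only Gbp7 had an unadjusted p under 0.05, with 5.47, 5.59 and 6.04 in vehicle and 5.97, 7.06, 6.58 and 6.55 in treated monocytes (0.84 ± 0.29; limma, adjusted p = 0.996). The median member difference was 0.31, with 31 of 38 positive, against a median of -0.015 and 47.2% positive over all genes.

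The members varied widely among vehicle monocytes. Their median SD was 1.25 there, against 0.33 for all genes, and 0.51 against 0.20 in treated monocytes. Vehicle monocyte library 3 was the highest of its group in 38 of 38 members and of all 7 monocyte libraries in 34, and vehicle library 2 was the lowest of its group in 36. Over all 13968 genes tested the same counts were 6201, 3575 and 4802. Oasl2, for example, measured 4.36, 2.87 and 7.55 in vehicle and 4.16, 6.07, 5.50 and 5.86 in treated monocytes. Mx1 measured 4.56, 2.95 and 7.05 in vehicle and 4.41, 5.97, 5.28 and 5.47 in treated monocytes. Rtp4, a chaperone of membrane receptors, measured 4.22, 2.28 and 6.48 in vehicle and 3.80, 6.05, 5.40 and 5.92 in treated monocytes. In each of these 3 genes the treated libraries lay within the range of the vehicle libraries.

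**Figure D4:**
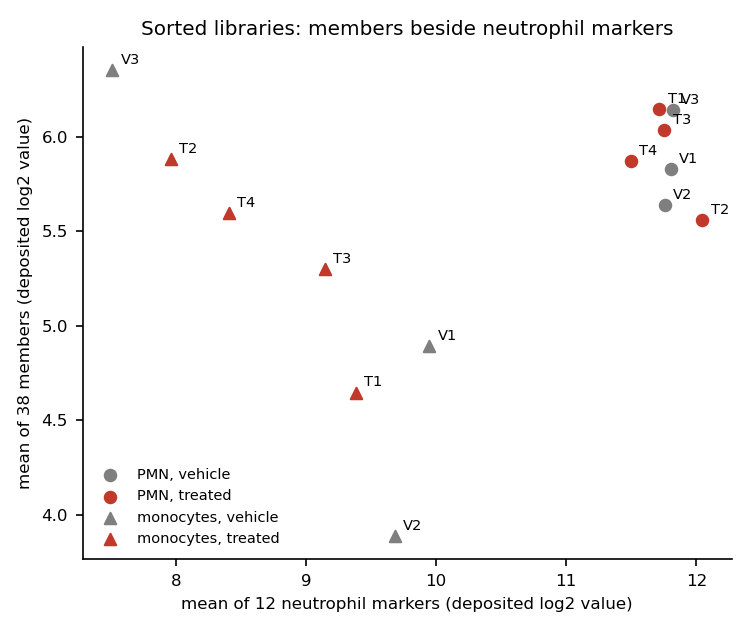
Each point is 1 sorted library, with the mean deposited log2 value of 12 neutrophil markers on the x axis and of the 38 measured members on the y axis, circles for PMN and triangles for monocytes, grey for vehicle and red for treated. Monocyte libraries spread from 3.89 to 6.35 in member mean and from 7.51 to 9.95 in neutrophil marker mean, while PMN libraries lie between 5.56 and 6.14 in member mean.

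Neutrophil markers differed between the same monocyte libraries. All 12 were measured, with list means of 9.95, 9.68 and 7.51 in vehicle and 9.39, 7.96, 9.14 and 8.41 in treated monocytes, and summed levels (log2) of 14.24 to 15.56 and 14.69 to 15.39. The member means of these libraries were 4.89, 3.89 and 6.35, and 4.65, 5.88, 5.30 and 5.59. The library lowest in neutrophil markers was the highest in members, and their part in the member values was not tested. Other lists varied among vehicle monocytes too, with means of 1.02 to 4.04 for T cell, 3.69 to 6.92 for erythroid and -0.66 to 2.24 for NK cell markers. Plasmacytoid dendritic cell markers, 3 of 5 measured, ran from 0.58 to 3.56, and conventional dendritic cell markers from 0.37 to 1.76. Classical monocyte markers ran from 9.18 to 10.60, and macrophage markers only from 4.05 to 4.21. The part of these lists was not tested either. Without vehicle monocyte library 2 the median member difference was -0.21, and without vehicle monocyte library 3 it was 0.97, with 26 members at an unadjusted p under 0.05 and 0 called.

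The treatment effect did not differ detectably between the cell types. In the test of monocyte minus PMN effects, 0 of 38 members and 0% of all genes were called, and 0 members had an unadjusted p under 0.05 in limma. The median difference of effects was 0.29 over the members and -0.01 over all genes. The largest member difference of effects was 1.05 ± 1.01 for Lgals3bp, a secreted glycoprotein. Errors of this size do not show that the cell types respond alike.

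Levels of some members differed between the cell types themselves, as did those of most genes. Calls numbered 16 of 38 members in vehicle mice and 18 in treated mice, against 8390 and 9725 of all 13968 genes. In vehicle mice 14 of 38 members were lower in monocytes than in PMN and 2 were higher, against 27.2% and 32.8% of all genes called lower and higher. In treated mice the same 14 were lower and 4 were higher, against 32.1% and 37.6% of all genes. The median difference was -0.55 in vehicle mice and -0.15 in treated mice, against 0.07 over all genes in both. The share of members that were lower was thus somewhat above that of all genes, and the share that were higher was below it. These differences were not tested. Without treated monocyte library 1 the median in treated mice was 0.06. Markers of other cells differed as well. In treated mice 7 of 7 NK cell, 7 of 8 B cell and 5 of 6 eosinophil markers were called lower in monocytes. Of 8 macrophage markers 3 were called higher. The part of these cells in the member differences was not tested.

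The OAS family had the largest differences, with 4 of 5 lower in monocytes. Oasl2 measured 8.47, 10.03 and 9.95 in vehicle PMN and 4.36, 2.87 and 7.55 in vehicle monocytes, a difference of -4.55 ± 0.92 (limma, adjusted p = 0.000981). In treated mice it was -4.28 ± 0.79. Oasl1 measured 6.09, 6.05 and 5.85 in PMN and 2.47, 1.48 and 3.29 in monocytes, a difference of -3.59 ± 0.36 (limma, adjusted p = 5.51e-06). Oas3 and Oas2 differed by -2.91 ± 0.56 and -2.34 ± 0.55. Oas1a was the exception at -0.25 ± 0.59, with 6.82, 6.41 and 7.35 in PMN and 6.65, 5.10 and 8.09 in monocytes.

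Rsad2 measured 6.05, 5.45 and 7.04 in vehicle PMN and 2.43, 2.11 and 4.62 in vehicle monocytes (-3.12 ± 0.60), and its neighbour Cmpk2 differed less, by -0.64 ± 0.22. Rtp4 and Ifit1 were lower by -2.86 ± 0.86 and -2.51 ± 0.73. Gbp2 led the GTPases, with 6.76, 6.82 and 7.25 in PMN and 4.59, 3.37 and 5.89 in monocytes (-2.33 ± 0.54), followed by Irgm2 (-1.80 ± 0.39), Gbp7 (-1.44 ± 0.31) and Igtp (-1.11 ± 0.44). Trim30a and Ddx58 were lower by -1.57 ± 0.37 and -1.42 ± 0.30. In a fit of only the groups compared, Cmpk2, Rtp4, Ifit1 and Igtp were not called. With 1 library left out, Igtp kept its call only without vehicle monocyte library 3.

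The Mx genes went the other way. Mx1 measured 2.52, 2.61 and 2.53 in vehicle PMN, below the 4.56, 2.95 and 7.05 of vehicle monocytes (2.30 ± 0.76; limma, adjusted p = 0.0191), and 2.77 ± 0.66 higher in treated monocytes. Mx2 was at 0.23 to 0.49 in vehicle PMN and 0.94 to 3.92 in vehicle monocytes (2.10 ± 0.56). The Mx1 call in vehicle mice was lost without vehicle monocyte library 3, and neither Mx1 nor Mx2 was called in vehicle mice in a fit of only these groups or with array quality weights. In treated mice Bst2 and Eif2ak2 were higher in monocytes as well, by 1.60 ± 0.43 and 0.90 ± 0.32. That neither passed in vehicle mice is not a test of a difference between vehicle and treated mice.

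**Figure D5:**
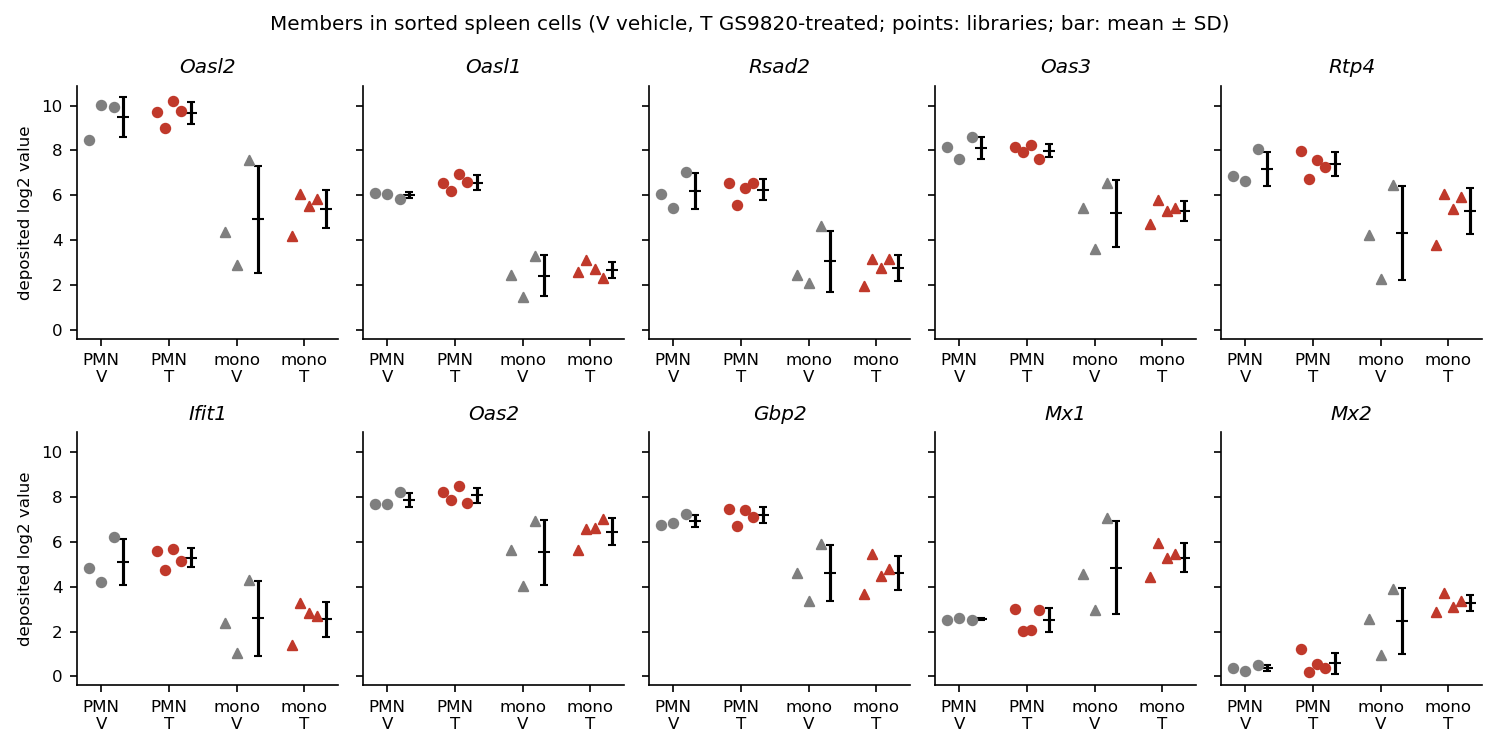
Points are single libraries and bars the mean ± SD of deposited log2 values for 10 members in PMN (circles) and monocytes (triangles) of vehicle (grey, n = 3 each) and treated mice (red, n = 4 each). Oasl2, Oasl1, Rsad2, Oas3 and Gbp2 lie lower in monocytes and Mx1 and Mx2 higher, while vehicle and treated libraries of a cell type overlap in all but Oasl1 in PMN.

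Stat2, Irf7, Irf9, Irgm1, Sp100, Dhx58, Ifih1 and Zbp1 did not pass in either comparison of the cell types. Stat2, for instance, was at 6.69 ± 0.03 (SD, n = 3) in vehicle PMN and 6.87 ± 0.88 (SD, n = 3) in vehicle monocytes. Sp100, at 8.26, was the member with the highest mean in vehicle monocytes, and Oasl2, at 9.48, in vehicle PMN. Iigp1, the member with the largest rise in tumours, was the lowest in all 4 sorted groups, with means of -0.43 to -0.10 against 2.53 in vehicle tumours, although tumour and sorted-cell tables were normalized separately and these levels are not on a common scale.

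Genes upstream of the members also differed between the cell types in vehicle mice. In this comparison 32.8% of all genes were called higher in monocytes and 27.2% lower, and the lists were not tested against these shares. The double-stranded DNA sensor gene Cgas and its adaptor gene Tmem173 were higher in monocytes by 1.87 ± 0.14 and 1.85 ± 0.32. Of the 11 genes that lead to interferon production 4 were higher, Ikbke and Mavs being the others, and 2 were lower (Myd88 and Trim25). Of the other regulatory factors, Irf8 and Irf5 were higher by 1.64 ± 0.36 and 1.42 ± 0.32, and Irf1 was lower by -1.27 ± 0.30. Of 10 receptor and kinase genes 1 was higher (Tyk2, 1.05 ± 0.24) and 4 were lower (Il10rb, Jak1, Jak2 and Ifnlr1). Of 37 further interferon-induced genes 2 were higher and 12 lower, the largest being Ifitm1, which blocks viral fusion, at -5.91 ± 0.40. Socs3, a feedback inhibitor of cytokine receptors, was lower by -3.42 ± 0.28.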

How the data were processed

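RNA was measured in KPC mice, in 12 libraries of whole tumour and 14 of sorted spleen cells. Per the labels' protocols, tumour libraries were made with a stranded kit after removal of ribosomal RNA, and sorted-cell libraries with TruSeq or NuGEN kits (which per library is not given in the sources used here). Per the submitters' processing notes TopHat2, STAR and limma were used with mm10, with no versions. The authors deposited 1 log2 value per gene and library, under the name log2 RPKM. The distribution of values is nearly the same in every library of a set, so depth could not be recovered and count tests were not run.

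Identifiers were matched to GENCODE M21, which left 283 tumour and 245 sorted-cell identifiers without a symbol. The members and lists were chosen with earlier results of these data known. All members may be named, ordered by role. Library values are given for the members of smallest p in tumours and of largest difference in sorted cells, and up to 4 genes past the threshold, or else up to 2 of smallest p, are named per pathway list; 1 gene that this rule would name is not reported here.

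A gene was tested if its value reached 0 in 5 or more tumours (16296 genes) or in 3 or more sorted libraries (13968 genes), with limma 3.58.1 in R 4.3.3 (linear model per gene, eBayes with trend, two-sided, Benjamini-Hochberg per comparison, threshold 0.05). Tumours formed 1 fit and the sorted libraries another with 4 groups. All 39 tumour and 38 sorted-cell members passed the filter. The steps were tested on simulated data. Alternatives were no filter or a minimum of 2, log2 of the value plus 1, quantile normalization, median centring, other eBayes settings, array quality weights, only the groups compared, a replicate block and each library left out.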

Additional observations from a re-analysis of the deposited data

Results flagged for a closer look

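In groups of 4 to 10 libraries, 154 sets of member values and 8 class means were checked for 1 library standing apart (Dixon's test at the 95% level), and 7 were marked. Chance marks about 1 in 20 such sets.

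In tumours, Mx2 was at -0.75 in vehicle tumour 2, below the other vehicle tumours, and Herc6 was at 5.84 in treated tumour 1, above the other treated tumours. In treated PMN, library 2 stood below the others in Irgm1 (5.97), Igtp (6.10) and Gbp7 (6.96), which are 3 of the 7 measured GTPases. In treated PMN library 4, Dhx58 was at 5.51 and Sp100 at 8.03, both below the other treated PMN.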

How the results depend on the processing

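In tumours, array quality weights gave 14 members past the threshold in place of 6, with 2764 of 16296 genes in place of 359. Leaving out the 3 tumours high in hepatocyte markers gave 1. Leaving out 1 tumour at a time gave 0 to 10. For monocytes against PMN in vehicle mice, a fit of only these groups gave 10 members in place of 16. The median difference of treatment effects (monocytes minus PMN) was -0.23 to 0.98 with 1 library left out, the highest without vehicle monocyte library 3. The same difference for Oas2 was 0.72 and ran from -0.021 without vehicle monocyte library 2 to 1.42 without vehicle monocyte library 3. The cause of these shifts was not tested. The tumour median stayed positive in every setting run. The settings that left out no library kept the sign of all 6 medians. With 1 library left out, the sign turned in 4 fits for PMN (lowest -0.07), in 1 for monocytes (-0.21), in 1 for the difference of effects and in 1 for monocytes against PMN in treated mice (0.06). Of the differences of single genes, 70 values lost the threshold and 913 kept direction and side.

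The replicate numbers did not meet the condition for pairing: same-number correlations were between -0.179 and 0.263 for tumours, and between -0.438 and 0.457 over the sorted groups. Vehicle PMN and monocytes correlated best with their own number in 3 of 3 pairs (0.457, 0.277 and 0.085), a hint from the data and not from the design. With a replicate block, 4 tumour members were called (median difference 1.29), 0 in PMN, 0 in monocytes, 17 and 19 for monocytes against PMN in vehicle and treated mice, and 0 for the difference of effects. In both comparisons of the cell types Igtp then lost its call and Ifit3 gained one, as did Isg15 in vehicle mice and Xaf1 in treated mice. Depth is unknown, so no limit of detection is given for low members such as Iigp1 in sorted cells.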
